A study of Mus musculus with 6 samples.

Results

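The genes described here are 9 mitochondrial carriers of adenine nucleotides, phosphate, aspartate and malate, measured in hearts of miR-1-2 knockout and wild-type mice. They are Slc25a23, Slc25a24, Slc25a25, Slc25a3, Slc25a4, Slc25a5, Slc25a11, Slc25a12 and Slc25a13, and they are 9 of the 18193 genes on the arrays. All 25 probe sets that the platform annotation gives to these symbols were taken, and none was filtered out for low signal. Slc25a23 was picked on its rise in knockout hearts, the same contrast that is described below, so its difference is given as a description without a test. The other 8 genes were added because they are related carriers. The knockout group was 3 hearts of miR-1-2 knockout mice at postnatal day 10, and the other group was 3 wild-type hearts of that age, with 1 array for each heart. The sources used here do not give the strain, litter or sex, nor whether the gene was deleted in all cells. The miR-1-2 locus encodes miR-1, which is abundant in striated muscle.

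Mitochondrial carriers of the SLC25 family are proteins of the inner mitochondrial membrane that swap one solute for another. The adenine nucleotide carriers bring ADP into the matrix and let ATP out, and the phosphate carrier brings in the phosphate for ATP synthesis. The ATP-Mg carriers have a calcium-binding region and exchange ATP-Mg for phosphate, which changes the total amount of nucleotide in the matrix. The aspartate carriers, also calcium-binding, and the malate carrier form the malate-aspartate shuttle, which moves reducing equivalents from cytosol to matrix and is important in heart.

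Values are log2 expression levels made with RMA, so a difference of 1 is a doubling. The 6 arrays had medians from 6.03 to 6.11. Levels of different probe sets cannot be ranked as amounts of RNA, because each binds with its own strength, and levels are therefore compared between genotypes. Bright and dim refer only to signal on the arrays. All 11 cardiomyocyte markers were bright, the dimmest being Ryr2 at a mean of 11.5. Averaged over the 11 markers, the arrays of each genotype ran from 13.6 to 13.7. Xist was at 12.2 in knockout replicate 2 and at 7.55 and 7.57 in the other knockout arrays, against 11.9 to 12.1 in wild-type arrays, so sex was not balanced. Ucp1, a brown fat carrier of the same family, was at 10.4 in knockout replicate 1 and at 6.68 and 5.28 in the others, against 9.45 in wild-type replicate 1 and 5.50 and 5.22 in the others.

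The start regions of 3 members are shown because the results turn on Slc25a23, Slc25a5 and Slc25a4, its heart and muscle relative. Each is the window from 250 bases before to 50 bases after the annotated start in RefSeq (GRCm38.p6), 5′ to 3′ on the gene's strand. Capitals mark matches to short motifs on either strand. The motifs searched were the core of the TATA box, spelled TATAA, the CCAAT box, spelled as its name says, the GC box, spelled GGGCGG, the E-box, spelled CACGTG, the cyclic AMP response element, spelled TGACGTCA, and the half-site of oestrogen-related receptors, spelled AAGGTCA. No printed match overlaps another. Slc25a23 lies at chr17:57059814-57060113 on the minus strand, Slc25a5 at chrX:36795347-36795646 on the plus strand and Slc25a4 at chr8:46211013-46211312 on the minus strand. The first listed of the 2 overlapping windows of Slc25a23 is shown.
Slc25a23: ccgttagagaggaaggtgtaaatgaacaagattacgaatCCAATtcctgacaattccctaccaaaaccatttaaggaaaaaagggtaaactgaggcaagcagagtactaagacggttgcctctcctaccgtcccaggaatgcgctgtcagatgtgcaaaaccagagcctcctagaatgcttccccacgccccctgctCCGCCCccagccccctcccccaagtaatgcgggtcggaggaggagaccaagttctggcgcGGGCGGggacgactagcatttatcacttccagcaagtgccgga
Slc25a5: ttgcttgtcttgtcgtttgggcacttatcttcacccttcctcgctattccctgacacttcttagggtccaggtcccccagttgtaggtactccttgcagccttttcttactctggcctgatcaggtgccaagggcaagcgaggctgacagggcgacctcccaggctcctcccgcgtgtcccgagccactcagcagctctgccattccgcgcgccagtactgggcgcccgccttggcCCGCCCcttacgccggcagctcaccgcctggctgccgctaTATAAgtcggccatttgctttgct
Slc25a4: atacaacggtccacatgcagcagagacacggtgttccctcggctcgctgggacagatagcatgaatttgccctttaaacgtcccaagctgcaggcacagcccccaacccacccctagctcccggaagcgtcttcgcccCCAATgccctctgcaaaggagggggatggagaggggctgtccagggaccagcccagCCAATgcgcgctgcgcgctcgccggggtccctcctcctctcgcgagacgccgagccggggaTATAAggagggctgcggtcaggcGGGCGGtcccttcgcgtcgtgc
The Slc25a23 window held a CCAAT match at -211 and GC box matches at -53 and 8. Slc25a5 had a GC box match at -14 and a TATA match at 27. Slc25a4 had CCAAT matches at -112 and -56, a TATA match at 6 and a GC box match at 29. In the first windows of the 9 members, GC boxes were in 7, CCAAT in 5, TATA in 2, the E-box in 1 and the other motifs in 0. Over all 32851 windows the shares were 35.7% for the GC box, 37.4% for CCAAT, 24.9% for TATA, 7.15% for the E-box, 1.79% for the cyclic AMP element and 4.72% for the receptor half-site. These matches are letters in a window and show nothing about binding.

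Slc25a23 and Slc25a5 stood higher in knockout hearts, and the other 7 members lay within about 0.1 of their wild-type means. With limma over all genes, 0 of the 8 members other than Slc25a23 had an adjusted p under 0.05, where 0% of all 18193 genes did. At an unadjusted p under 0.05 the count was 1 of these 8 (Slc25a5), beside 4.1% of all genes. With the replicate number as a block, 0 of these 8 passed, and Slc25a23 was among the 13 genes, 0.0715% of all, that did, which is no test of it because it was picked on this contrast. All knockout arrays lay above all wild-type arrays for Slc25a5, beside 4.57% of all genes, and for Slc25a23, which was picked for its rise. They lay below for Slc25a13, beside 4.28%. The median log2 difference of the 9 members was -0.013, and that of all genes was 4.8e-04. In RNA of whole hearts, fewer cells of a type and less RNA per cell cannot be told apart.

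**Figure D1:**
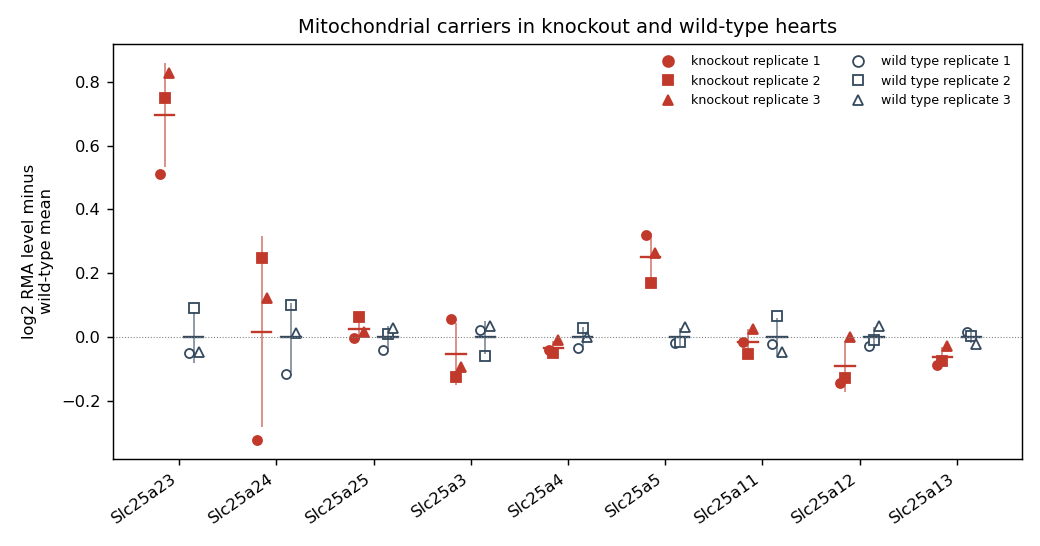
Each point is 1 heart's log2 RMA level of a carrier minus that carrier's wild-type mean, with knockout hearts filled and left of wild-type hearts; horizontal marks are group means and vertical lines are 1 SD (n = 3 each). Slc25a23 and Slc25a5 have all knockout hearts above all wild-type hearts, and knockout replicate 1 is the low point of Slc25a24.

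Among the members that are calcium-regulated ATP-Mg carriers, Slc25a23 alone had separate groups. It stood at 8.02, 8.26 and 8.33 in knockout replicates 1 to 3, against 7.46, 7.60 and 7.46 in wild type. The lowest knockout heart lay above the highest wild-type heart, and the 3 same-numbered pairs differed by 0.56, 0.66 and 0.87. The means were 8.20 ± 0.16 in knockout and 7.51 ± 0.08 in wild type (SD, n = 3 each), a log2 difference of 0.70 ± 0.10 (SE) or 1.62-fold. Only 1 probe set measures this gene, so no other probe set can be set beside it. With the high-Xist arrays alone, knockout replicate 2 against the 3 wild-type arrays, the difference was 0.75, a comparison chosen after seeing the data and resting on 1 knockout heart.

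Slc25a24, its closely related carrier, stood at 7.55, 8.12 and 7.99 in knockout hearts, against 7.76, 7.97 and 7.88 in wild-type hearts. The groups overlapped, and knockout replicate 1 was the lowest of all 6. The log2 difference was 0.02 with a 95% interval from -0.30 to 0.34, and 0.19 without knockout replicate 1. It was 0.24 when Xist was a covariate and 0.25 among the high-Xist arrays alone, again with 1 knockout heart. Its dimmer probe set differed by -0.16 (95% interval from -0.53 to 0.21), and by 0.14 with the Xist covariate. Slc25a25, the remaining ATP-Mg carrier among the members, was at 8.04, 8.11 and 8.06 in knockout hearts, against 8.0, 8.05 and 8.07 in wild-type hearts. These groups overlapped too, with a difference of 0.03 (95% interval from -0.12 to 0.18). The other Slc25a25 probe sets differed by 0.03 and -0.05, the first of these near the floor of the arrays at a mean of 3.94.

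Of the adenine nucleotide carriers, Slc25a5, the form found in many tissues and in dividing cells, was higher in knockout, whereas Slc25a4, the form of heart and skeletal muscle, was not. The brightest Slc25a5 probe set stood at 12.79, 12.64 and 12.73 in knockout hearts, against 12.45, 12.45 and 12.50 in wild-type hearts. The groups did not overlap, and the means were 12.72 ± 0.08 in knockout and 12.47 ± 0.03 in wild type (SD, n = 3 each). The log2 difference was 0.25 ± 0.07 (SE), 1.19-fold, with a 95% interval from 0.09 to 0.41, and it did not pass over all genes (limma adjusted p = 1.00, and 0.483 with the replicate block). It passed in 1 of 18 alternatives, with arrays weighted by their agreement (limma adjusted p = 0.0437), a fit in which knockout replicate 3 had a weight of 4.75 and replicate 1 one of 0.222, and in which 416 genes, 2.29% of all, passed.

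All 8 probe sets of Slc25a5 were higher in knockout, by 0.23 to 0.40. In 5 of the 8 the groups did not overlap, beside 4.05% of all 45037 probe sets with all knockout arrays above, and in each of the 8 the knockout heart was higher in all 3 same-numbered pairs. The probe sets measure the same RNA in the same hearts and are not replicates. Adjusted over all probe sets, 0 of the 25 member probe sets passed, beside 0.00666% of all, and 7 of the 8 for Slc25a5 had an unadjusted p under 0.05, beside 3.94% of all probe sets. In 1438360_x_at the values were 10.09, 10.45 and 10.67 in knockout hearts, against 9.99, 10.23 and 9.89 in wild-type hearts, and replicate 1 was the lowest knockout heart there. In 1430542_a_at they were 12.61, 12.17 and 12.28 in knockout hearts, against 12.10, 11.92 and 12.16 in wild-type hearts, with replicate 1 the highest. The probe sets thus shared a direction but not an order of the knockout hearts, and single hearts set the size of several. Without knockout replicate 1 the difference of 1430542_a_at was 0.17 instead of 0.29, and that of 1438545_at was 0.12 instead of 0.23. Without knockout replicate 3 that of 1438922_x_at was 0.23 instead of 0.40, and that of 1438360_x_at was 0.24 instead of 0.37.

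Of the 8 probe sets, 6 carry the suffix x_at, which Affymetrix gives to sets in which some probes also match other sequences. The only plain set, 1438545_at, stood at 10.32, 9.94 and 10.03 in knockout hearts, against 9.87, 9.78 and 9.95 in wild-type hearts. It was 0.23 higher in knockout (95% interval from -0.01 to 0.46), and the groups touched, with knockout replicate 2 just under wild-type replicate 3. Slc25a5 lies on the X chromosome. With the Xist level as a covariate the difference of the brightest probe set was 0.17 instead of 0.25, and among the high-Xist arrays alone it was 0.17, with knockout replicate 2 at 12.64. With that covariate 1438545_at differed by 0.08, 1430542_a_at by 0.12 and 1438546_x_at by 0.15, and the other 4 by 0.22 to 0.41, so all 8 stayed higher in knockout.

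Slc25a4 stood at 13.84, 13.83 and 13.88 in knockout hearts, against 13.85, 13.91 and 13.89 in wild-type hearts. The groups overlapped and differed by -0.03 (95% interval from -0.18 to 0.12). Its other probe sets differed by -0.03, -0.08 and 0.15, and their groups overlapped as well. Within each array, the log2 ratio of Slc25a5 to Slc25a4 lay above its wild-type mean by 0.36, 0.22 and 0.27 in knockout hearts, against 0.02, -0.05 and 0.03 in wild-type hearts. The ratio differed by 0.28, with an exact two-sided permutation p of 0.10, the smallest that 3 against 3 arrays allow. The ratio was higher in each of the 3 knockout hearts than in any wild-type heart, and any such full separation gives this p. Taken singly, 8.86% of all genes had groups without overlap, and the share over other gene pairs was not computed. The ratio holds the same Slc25a5 values as above, so it is no separate support for that difference.

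**Figure D2:**
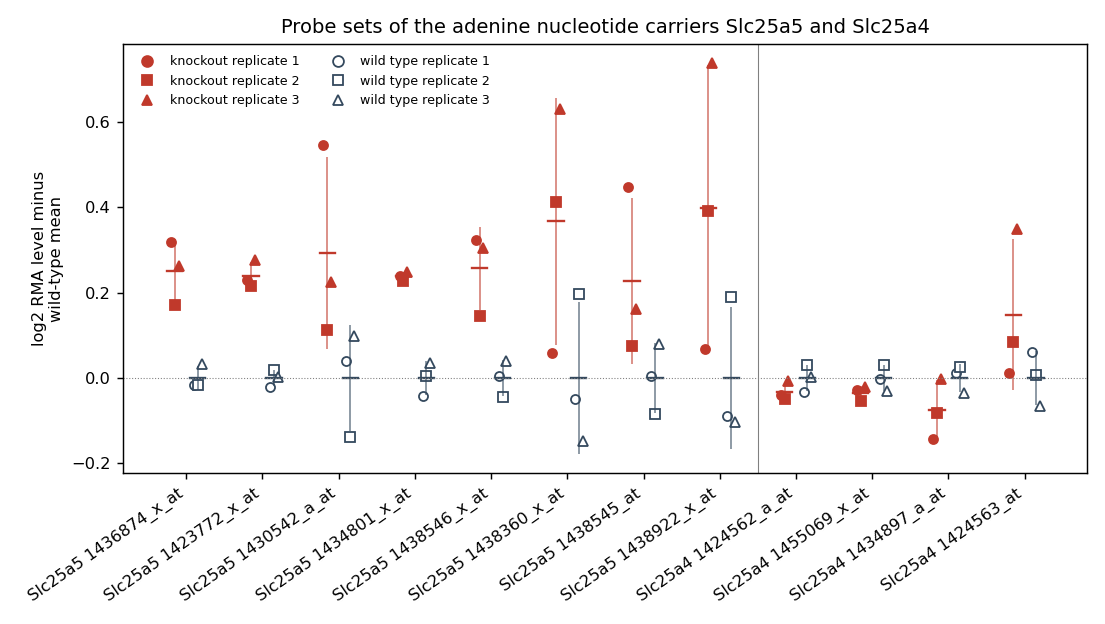
Each point is 1 heart's log2 RMA level for a probe set minus its wild-type mean, knockout filled and left of wild type, for 8 probe sets of Slc25a5 and 4 of Slc25a4, each from bright to dim; marks and lines are means and 1 SD (n = 3 each). All 8 Slc25a5 means lie 0.23 to 0.40 above wild type, and the Slc25a4 means lie from -0.08 to 0.15.

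Slc25a3, the phosphate carrier, was at 13.34, 13.16 and 13.20 in knockout hearts, against 13.31, 13.23 and 13.32 in wild-type hearts. The groups overlapped, with knockout replicate 1 the highest heart of all, and the difference was -0.05 (95% interval from -0.23 to 0.12). The dimmer probe set differed by 0.02.

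The malate-aspartate shuttle carriers differed little. Slc25a11, the malate and oxoglutarate carrier, was at 10.55, 10.51 and 10.59 in knockout hearts, against 10.54, 10.63 and 10.52 in wild-type hearts, with overlapping groups. Its difference was -0.01 (95% interval from -0.17 to 0.14). Slc25a12, the aspartate carrier of heart, muscle and brain, was at 10.08, 10.10 and 10.23 in knockout hearts, against 10.20, 10.22 and 10.26 in wild-type hearts. Each knockout heart lay below the wild-type heart of its number, the groups overlapped, and the difference was -0.09 (95% interval from -0.25 to 0.07). All 3 of its probe sets were lower, by 0.02 to 0.09.

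Slc25a13, the aspartate carrier best known from liver, was at 9.07, 9.08 and 9.13 in knockout hearts, against 9.17, 9.16 and 9.14 in wild-type hearts. The groups did not overlap, but knockout replicate 3 differed from wild-type replicate 3 by only -0.0081, and the difference was -0.06 (95% interval from -0.21 to 0.08, limma adjusted p = 1.00). The ratio of Slc25a13 to Slc25a12 within arrays differed by 0.03 (exact two-sided permutation p = 0.50). Among the 7 members other than Slc25a23 and Slc25a5, the widest interval was that of Slc25a24, from -0.30 to 0.34.

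Markers of other cell types were measured beside these values. All 8 myeloid markers were lower in knockout, with a mean level of 7.36 to 7.59 in knockout arrays and 7.60 to 7.98 in wild-type arrays, and the lowest single marker was Cd68 at 6.14. This list moved with the genotype as Slc25a23 and Slc25a5 did, in the opposite direction, and its part in their differences was not tested. Its highest knockout array and its lowest wild-type array lay close together. The means of the other 8 marker lists overlapped between the groups. Of 9 measured brown fat markers 5 were higher, with means of 9.56, 8.62 and 8.52 in knockout replicates 1 to 3, against 9.37, 8.52 and 8.51 in wild type. Without the first replicates of both genotypes Slc25a23 differed by 0.76 and Slc25a5 by 0.21.

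Other carriers of the SLC25 family showed no common direction. Of 43 listed, 39 were measured, and 20 of these were higher and 19 lower in knockout, with a median of 0.01. In limma 0 passed over all genes with or without the block. Without it 3 of the 39 had an unadjusted p under 0.05, beside 4.1% of all genes. With array weights 2 passed, Slc25a39 and Slc25a54, the second of which is named after its values were seen, beside 2.29% of all genes. Slc25a31 was among the 36 of all 18193 genes that passed in the block without pair 2. Slc25a39, which carries glutathione, stood at 11.51, 11.66 and 11.64 in knockout hearts, against 11.30, 11.42 and 11.36 in wild-type hearts, a difference of 0.24 without overlap. Its other 4 probe sets ran from -0.03 to 0.30. Slc25a32, a folate carrier, differed by -0.25 between a mean of 5.03 in knockout and 5.28 in wild type, without overlap. The other 2 probe sets of Slc25a32 differed by -0.19 and -0.0018. Slc25a31, the testis form of the adenine nucleotide carrier, was also dim, with a mean of 4.77 in knockout and 5.33 in wild type, and differed by -0.56 with overlapping groups. Mtch1, a carrier relative of the outer membrane, differed by 0.23.

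**Figure D3:**
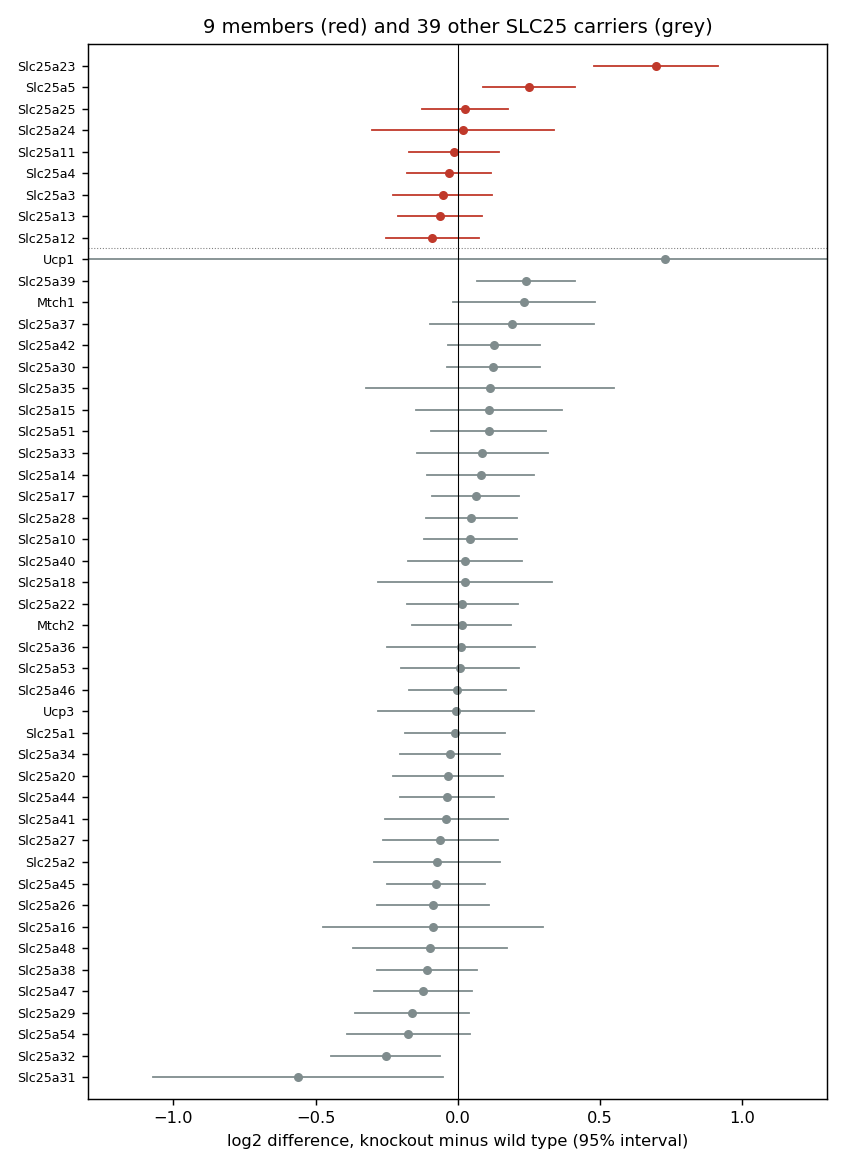
Points are log2 differences, knockout minus wild type, with 95% intervals from limma for the 9 members (red, upper block) and 39 other SLC25 carriers (grey), 3 hearts per genotype; the interval of Ucp1 runs past both ends of the axis. The intervals of Slc25a5, Slc25a39, Slc25a32 and Slc25a31 do not cross 0. That of Slc25a23 does not either, which is no test because it was picked on this contrast.

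Enzymes and partners of the carriers were read from lists chosen for this pathway. Of 14 measured partners in nucleotide and phosphate exchange, 7 were higher and 7 lower, with a median of -0.01. Of these, 0 passed over all genes (lowest limma adjusted p = 0.741, and 0.0526 with the block). Without the block 4 of the 14 had an unadjusted p under 0.05, beside 4.1% of all genes. All knockout arrays lay above all wild-type arrays for 3 of them, beside 4.57% of all genes, and below for 3, beside 4.28%. Ckmt2, the mitochondrial creatine kinase of heart muscle, which takes up the ATP that the adenine nucleotide carriers release, stood at 11.88, 11.46 and 11.51 in knockout hearts, against 12.42, 12.02 and 11.98 in wild-type hearts. The groups did not overlap, the pairs differed by -0.54, -0.56 and -0.47, and the difference was -0.52 ± 0.15 (SE), which had the adjusted p of 0.0526 with the block. Ckb, the cytosolic brain-type creatine kinase, was at 10.39, 10.35 and 10.30 in knockout hearts, against 9.95, 10.03 and 10.08 in wild-type hearts, a difference of 0.32 without overlap (limma adjusted p = 0.741). With array weights both creatine kinases passed, beside 416 genes, 2.29% of all, in the fit that weighted knockout replicate 3 most. Ppif, the cyclophilin of the permeability transition, differed by -0.18, and Tspo, an outer membrane protein that binds cholesterol, by 0.17, both without overlap.

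Mitochondrial calcium genes went both ways. Of 10 measured, 6 were higher and 4 lower (median 0.01), and 0 passed in limma. Only 1 had an unadjusted p under 0.05, beside 4.1% of all genes. That was Letm1, a cation exchanger of the inner membrane, which passed with array weights, beside 2.29% of all genes. It stood at 7.56, 7.68 and 7.77 in knockout hearts, against 7.46, 7.42 and 7.38 in wild-type hearts, a difference of 0.25 without overlap. Its remaining 3 probe sets were lower in knockout, from -0.15 to -0.04. Mcur1, a regulator of the calcium uniporter, differed by 0.09, Micu2, a gatekeeper of it, by 0.07 and Vdac3, an outer membrane pore, by -0.04.

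Of the 9 shuttle enzymes, 3 were higher and 6 lower (median -0.04), and 0 passed in limma. An unadjusted p under 0.05 was reached by 0 of these, by 0 of the ATP synthase subunits and by 0 of the biogenesis regulators. The differences were 0.16 for Gpd2 of the glycerol phosphate shuttle and -0.09 for the mitochondrial malate dehydrogenase Mdh2. They were -0.07 for the lactate dehydrogenase subunit Ldhb and -0.06 for the cytosolic aspartate transaminase Got1. The other 3 probe sets of Gpd2 ran from -0.09 to 0.17. That of Mdh2 differed by -0.07, and the other 3 of Ldhb ran from -0.07 to -0.06. Of 15 ATP synthase subunits, 7 were higher and 8 lower (median -0.01), from -0.09 for Atp5pb, a stalk subunit, to 0.05 for Atp5g2, and 0 passed. Atp5g1 and Atp5g3, which like Atp5g2 encode the subunit of the membrane ring, differed by -0.07 and -0.04, and the groups of Atp5g3 did not overlap. The other probe set of Atp5g1 differed by -0.17 and that of Atp5pb by -0.06. The other 2 of Atp5g2 ran from -0.07 to 0.02. Of 17 regulators of mitochondrial biogenesis, 9 were higher and 8 lower (median 0.03), and 0 passed. Ppargc1b, a coactivator, was at 10.05, 10.09 and 9.97 in knockout hearts, against 9.84, 9.90 and 9.90 in wild-type hearts, a difference of 0.16. Tfam, which packs and transcribes mitochondrial DNA, was at 8.19, 8.33 and 8.28 in knockout hearts, against 8.47, 8.40 and 8.37 in wild-type hearts. Its difference was -0.15, and that of its other probe set was 0.01. Tfb1m, a mitochondrial rRNA methyltransferase, differed by -0.16 and Opa1, which fuses inner membranes, by -0.10. The other probe set of Tfb1m differed by -0.11, and the other 2 of Opa1 by -0.06 and 0.11.

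The genes with the profile most like that of Slc25a23 were Cubn, Aldh1b1, Ror1, Pirt and Cox8a. Likeness was the mean absolute difference, over the 6 arrays, of log2 levels centred on each gene's own mean. It was 0.083 for Cubn, an endocytic receptor, 0.089 for Aldh1b1, a mitochondrial aldehyde dehydrogenase, 0.093 for the receptor kinase-like Ror1, 0.10 for Pirt, a membrane protein of sensory neurons, and 0.10 for Cox8a, a cytochrome c oxidase subunit. The median over all genes was 0.35. Since Slc25a23 was picked for its rise, genes found in this way share that rise by construction. Among the members, Slc25a5 was the closest at 0.23 and the others lay between 0.33 and 0.39.

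**Figure D4:**
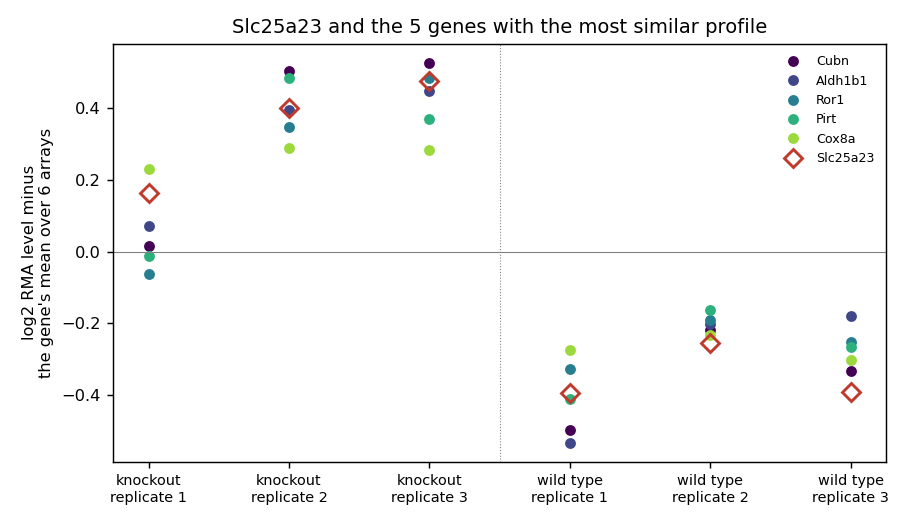
Points are log2 RMA levels centred on each gene's mean over the 6 arrays, for Slc25a23 (red diamonds) and the 5 genes closest to it, with knockout hearts left of wild-type hearts. In knockout replicate 1 Slc25a23 lies lower than in the other knockout hearts, and so do Cubn, Aldh1b1, Ror1 and Pirt, while Cox8a differs least between knockout hearts.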

How the data were processed

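Trizol RNA from each of the 6 hearts went onto 1 array, per the labels' protocols. The submitters' processing notes name GCOS 1.4 and RMA. The deposited values are log2 levels, which the authors computed as RMA values with affy in R, according to the design text. RMA removes background, equalises the distributions of arrays and summarises probes, so a change shared by most genes would be removed. Arrays carry no read depth, and their number limits the precision.

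Control probe sets (64) were left out of 45101, and 45037 were tested. Symbols came from the platform annotation and were updated by gene identifier through RefSeq (GRCm38.p6): of the probe sets, 34945 carried a single symbol, 932 carried several and 9160 had no symbol here. The brightest single-symbol probe set, by its mean over the arrays, stood for each of 18193 genes. Genotypes were compared with limma 3.58.1 in R 4.3.3 (lmFit, eBayes) without a block. P-values were adjusted by Benjamini-Hochberg over the whole table of genes, or of probe sets, with a threshold of 0.05. The 3 same-numbered arrays of the 2 genotypes had deviations correlating at 0.54, 0.18 and 0.13. These are all over 0.1, so the numbers in the titles were treated as pairs in an alternative fit. Knockout 3 correlated more with wild type 2 (0.35), and knockout 2 more with wild type 3 (0.30), than with their own numbers, so only pair 1 is the best match on both sides. The 18 alternatives were the replicate block, other variance, weight, normalization, probe-set and filter settings, Xist as a covariate, and arrays left out. Only the limma fit without a block was tested on simulated data, which held no replicate or sex structure.

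The members and lists were chosen with earlier results of these data known. Named genes were the members, up to 4 genes per list with the smallest p, the 5 genes most like Slc25a23 (clone and predicted names left out), and Xist, Eif2s3y, Ucp1 and Mib1 as properties of the arrays, of which Xist and Ucp1 are given. Nothing states that the hearts came from separate litters. Protein sequences and the microRNA were not used here.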

Additional observations from a re-analysis of the deposited data

How the results depend on the processing

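Over 18 alternatives the log2 difference of Slc25a23 stayed positive, between 0.61 and 0.79, and that of Slc25a5 between 0.17 and 0.29. Slc25a25, Slc25a3, Slc25a12 and Slc25a13 kept their sign in all 18. Slc25a24 turned sign in 7, Slc25a11 in 5 and Slc25a4 in 1. The number of members passing was 1 with the replicate block and 2 with array weights, and it ran from 0 to 1 when single arrays or pairs were left out. Each of these passes was that of Slc25a23, which is no test because it was picked on this contrast, except that of Slc25a5 with array weights. Of the other 8 members, 0 passed in any other alternative. The number of genes passing was 13 with the replicate block, 416 with array weights, 3 when the probe sets of a gene were averaged and 1 without the first replicates of both genotypes. It ran from 0 to 36 when arrays or pairs were left out, being 4 without knockout replicate 1 and 2 without knockout replicate 2. In the block this number was 11 without pair 1, 36 without pair 2 and 0 without pair 3. Of the member probe sets, 1 passed with the replicate block, that of Slc25a23, which is no test because it was picked on this contrast. With array weights 1 passed, and when arrays were left out the number ran from 0 to 1. The shares of all probe sets passing in these fits are not given, so these counts are no result about the members. Members whose groups did not overlap numbered 3 with all arrays, beside 8.86% of all genes, and 2 with arrays centred on their medians, beside 8.81%. With all arrays the 3 were Slc25a5, Slc25a13 and Slc25a23, the last of which was picked on this contrast. Members without overlap numbered 6 when the first replicates of both genotypes were left out, beside 46.6% of all genes. When single arrays were left out they ran from 3 to 5, being 5 without knockout replicate 1, beside 38.7%, and 5 without knockout replicate 3, beside 14%. Without wild-type replicate 1 they numbered 4, beside 14.7%. They numbered 3 without knockout replicate 2, beside 17%, without wild-type replicate 2, beside 15.9%, and without wild-type replicate 3, beside 15.7%. Smaller groups make such gaps more frequent over all genes, and the cause of the other shifts was not tested. Of the listed genes, array weights passed 2 other carriers, 2 exchange partners and 1 calcium gene, beside 2.29% of all genes. The block without pair 2 passed 1 other carrier, which was among the 36 genes that passed there. The replicate block changed no call of a member other than Slc25a23.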

Other observations

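Among the 52 genes that had 8 or more probe sets naming them alone, a grouping chosen after the values were seen, all probe sets were higher in knockout for 2, Slc25a5 and Ywhaq, and all were lower for 4. Ywhaq, a 14-3-3 adaptor protein, had 8 probe sets from 0.15 to 0.26 higher in knockout, and those of Slc25a5 ran from 0.23 to 0.40. This is a description with no test, and probe sets of 1 gene share their RNA.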
